A study of Mus musculus with 6 samples.

Results

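The 38 genes described here are markers and effectors of microglia, the resident macrophages of the brain, together with genes of the complement system. They were chosen by gene symbol from a list of homeostatic microglial, complement and reactive genes. The rule itself uses no measured value, but the list was drawn up with earlier results of these data known. All 38 were found among the 17645 genes listed in at least 1 library of the series, and 34 of them were listed in all 6 libraries. These include Cx3cr1, P2ry12, Tmem119, Csf1r, Siglech, Fcrls and Gpr34, which were taken as markers of microglia.

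The libraries hold RNA of the suprachiasmatic nucleus (SCN), the hypothalamic seat of the circadian clock. Mice were female, of strain C57BL/6, and were killed in the dark at zeitgeber time (ZT, hours after lights on) 12 to 14. The tissue was taken with a needle from frozen coronal brain sections, and each library was made from the pooled RNA of 2 SCN. Of the 6 libraries, 3 were labelled r1r2V (replicates 1, 4 and 5) and 3 were labelled V (replicates 2, 3 and 4). From the series title, r1r2V was read as the deletion of both REV-ERB genes, Nr1d1 and Nr1d2, in GABAergic neurons and V as its control. The sources used here do not give the Cre driver, any allele the V mice also carried or the age of the mice. Microglia are not neurons and would keep both genes under such a deletion. Nothing states that the pools came from different animals, so the spread behind each p-value is that between these libraries.

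Complement C1q is the recognition subunit of the classical pathway. Its binding leads to cleavage of C4 and then C3, whose fragments tag synapses and debris for uptake by microglia through complement receptor 3, the heterodimer of Itgam and Itgb2. Homeostatic microglia express a set of surface receptors, such as P2ry12, Tmem119 and Cx3cr1, that is reduced when the cells react to injury. REV-ERBα and REV-ERBβ are transcriptional repressors of the clock, and Il6, Ccl2, Cx3cr1, C3 and C4b are among the immune genes that have been reported elsewhere as repressed by them.

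The promoters of C1qb and C1qc are shown because C1q supplied the most abundant complement transcripts among the 38 members per length, and that of Cd59a, a complement inhibitor outside the list, because it was the only complement gene that passed the test. Sequences are from RefSeq (build GRCm38.p6), 250 bases ending just before the start used for the window, read 5′ to 3′ on the gene's own strand. For C1qc and Cd59a this start lies inside the full extent of the gene (chr4:136889801-136892936 and chr2:104095753-104115410). The last bases of these windows therefore fall within the gene. C1qb lies on the minus strand with its window at chr4:136886201-136886450, C1qc on the minus strand at chr4:136892915-136893164, and Cd59a on the plus strand at chr2:104095551-104095800. Capitals mark GAGGAA, a core of sites bound by PU.1, the lineage factor of microglia, or its reverse complement, and in C1qc also the reverse complement of AGGTCA, the hexamer bound by many nuclear receptors.
C1qb: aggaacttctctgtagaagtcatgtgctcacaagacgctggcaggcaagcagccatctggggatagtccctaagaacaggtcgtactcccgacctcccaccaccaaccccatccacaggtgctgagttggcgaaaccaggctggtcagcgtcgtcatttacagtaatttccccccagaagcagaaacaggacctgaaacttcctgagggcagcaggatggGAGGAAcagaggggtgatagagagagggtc
C1qc: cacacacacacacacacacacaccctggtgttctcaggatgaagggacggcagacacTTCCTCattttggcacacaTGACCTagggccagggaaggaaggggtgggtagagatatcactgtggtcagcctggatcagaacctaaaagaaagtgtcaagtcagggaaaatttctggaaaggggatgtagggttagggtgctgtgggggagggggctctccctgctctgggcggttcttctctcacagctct
Cd59a: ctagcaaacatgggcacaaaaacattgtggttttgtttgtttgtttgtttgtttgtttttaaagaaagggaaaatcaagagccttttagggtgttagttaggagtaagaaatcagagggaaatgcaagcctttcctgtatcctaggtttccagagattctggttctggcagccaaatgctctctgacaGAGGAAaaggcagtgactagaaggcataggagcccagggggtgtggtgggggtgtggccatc
The PU.1 core began 30 bases before the start used for the window of C1qb, 193 bases before that of C1qc and 62 bases before that of Cd59a. The hexamer of C1qc began 174 bases before the start used for its window. The search covered windows of 26 of the 38 genes. Windows on an excluded chromosome were left out, for members and for all genes alike. The 26 are therefore the members searched and not all those that may have a window. A gene counted if any of its windows held the letters. GAGGAA, on either strand, was found for 13 of these 26 (50%) and for 25.9% of the 27025 genes searched. AGGTCA was found for 7 of the 26 (26.9%) and for 15.8% of all genes searched. The longer REV-ERB response element was searched on both strands as AANT followed directly by AGGTCA or by GGGTCA. It was found for 0 of the 26 and for 0.418% of all genes searched. The first form contains AGGTCA, so these searches overlap. A match describes letters in this window and no binding.

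Expected counts summed to between 15729603 and 17780928 per library. Nr1d1, targeted by the deletion, had 196, 157 and 147 CPM (counts per 1000000 of the scaled library total) in the libraries labelled r1r2V, against 56.7, 62.5 and 57.0 CPM in those labelled V. It was thus higher, by a fold change of 2.84, and not lower (Benjamini-Hochberg adjusted p = 8.24e-05 by edgeR's quasi-likelihood test). Nr1d2 had 229, 275 and 222 CPM in the libraries labelled r1r2V and 177, 179 and 168 CPM in those labelled V (adjusted p = 0.0553). A gene total can also count reads outside a deleted exon, so it does not check the deletion, and in bulk tissue undeleted cells contribute as well. Every direction below is therefore one between labels. Pairs of libraries labelled r1r2V differed from one another by 11.3 to 13 times sampling noise (chi-square per degree of freedom over genes), and pairs labelled V by 3.74 to 5.4 times, so each library counted as 1 replicate.

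No member passed the test in either direction. Of the 38, 34 had enough counts to be tested, and 0 were higher and 0 lower in the libraries labelled r1r2V at an adjusted p of 0.05 (edgeR's quasi-likelihood test, adjusted over all 14438 genes tested). Over all genes, 0.298% were higher and 0.118% lower, 0.416% in all. At an unadjusted p under 0.05, 1 member (Siglech) was higher and 0 were lower, which is 2.94% of the 34 against a background of 3.95% higher and 3.63% lower over all genes. DESeq2, limma-voom and limma on FPKM (fragments scaled by transcript length and library size) also called 0 members. The lowest adjusted p of any member under any alternative was 0.182, for Ly86.

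Although single genes did not pass, most estimates lay on the same side. The log2 fold change was above 0 in 31 of the 34 (91.2%), against 52.5% of all genes tested. The median member was 0.125 higher on the log2 scale in the libraries labelled r1r2V, a fold of 1.09, and the range ran from -0.02 to 0.40. The median over all genes tested was 0.01. By role, it was 0.13 for the complement components, 0.12 for complement receptors, 0.08 for homeostatic genes, 0.14 for adaptors and phagocytosis, and 0.26 for innate sensing and reactive genes. Many of these genes are used as markers of microglia, but the cells the transcripts came from were not measured. The 34 were therefore not counted as independent of one another. In bulk tissue, more cells of a type and more RNA per cell cannot be told apart. The median depended on single libraries: it was 0.08 without replicate 4 of r1r2V, with 26 members above 0, 0.21 without replicate 1 of r1r2V, and 0.19 without replicate 4 of V.

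**Figure D1:**
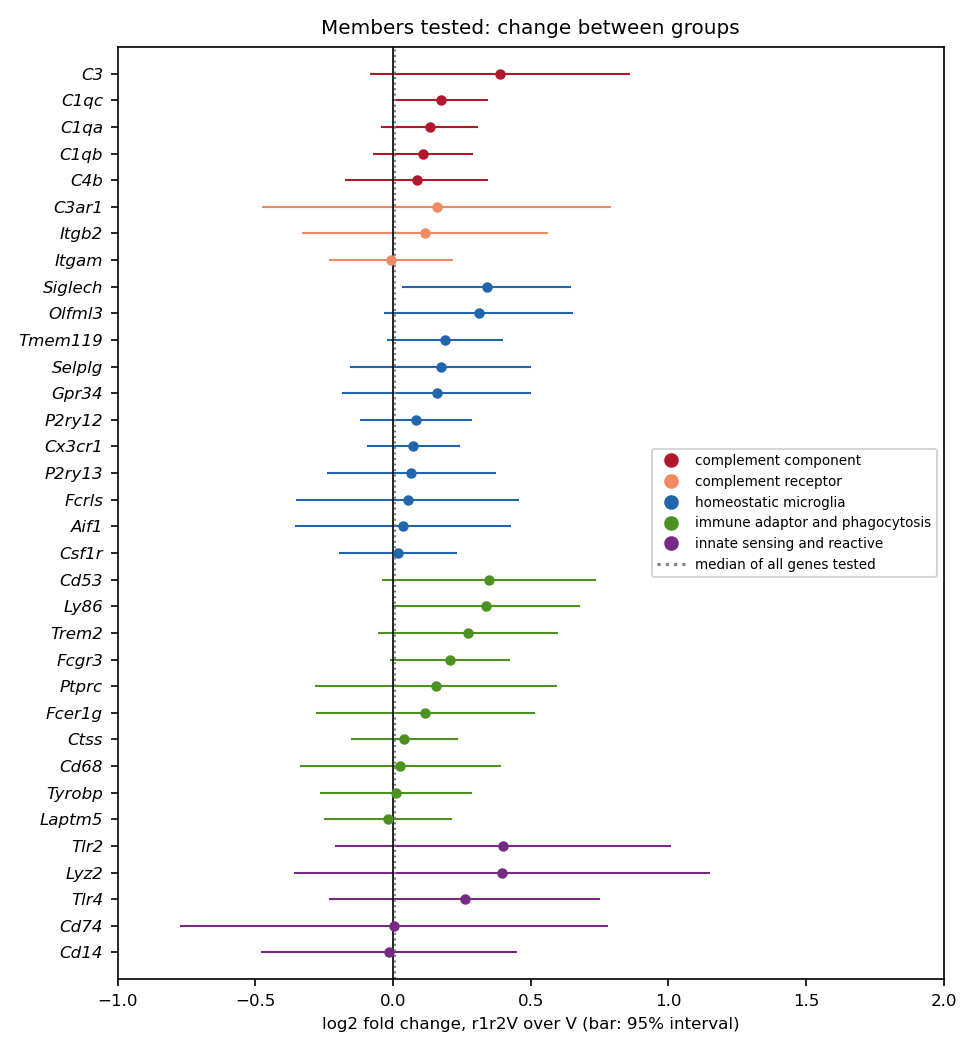
Log2 fold change (r1r2V over V) of each of the 34 members tested, from edgeR, on the x axis, with 95% confidence intervals as bars and colours for the roles. Points for 31 members lie above 0, from -0.02 to 0.40 over all 34, and only the interval of Siglech lies wholly above 0.

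The libraries labelled r1r2V were not alike. Relative to the mean of V, the median member deviated by -0.03 in r1r2V replicate 1, 0.24 in r1r2V replicate 4 and 0.17 in r1r2V replicate 5 on the log2 scale. The same median was 0.02, -0.04 and 0.02 in V replicates 2, 3 and 4. Replicate 4 of r1r2V held the highest level of 19 of the 34 members, replicate 5 that of 11, replicate 1 that of 3, and V replicate 3 that of 1. Summed over all 38, the members came to 571, 656 and 642 CPM in the libraries labelled r1r2V and 585, 554 and 588 CPM in those labelled V, so the groups overlapped through r1r2V replicate 1. The SD was larger in r1r2V than in V for 30 of the 34 (88.2%), against 71.6% of all genes tested.

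**Figure D2:**
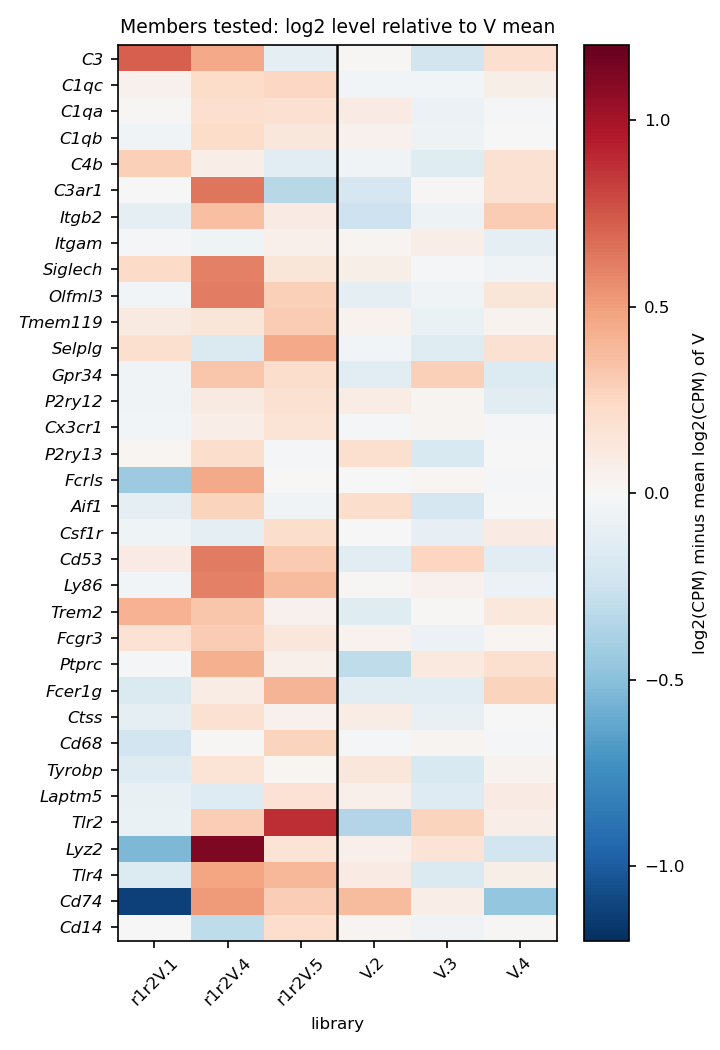
Each of the 34 members tested (down the page, by role) in each of the 6 libraries (across, r1r2V left of V), coloured by log2(CPM) minus the mean log2(CPM) of V. Replicate 4 of r1r2V is the column with most high values (highest for 19 members), while replicate 1 lies near V, with a median of -0.03.

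Per length (FPKM), the C1q chains were the most abundant complement genes among the members. C1qa, C1qb and C1qc encode the A, B and C chains that assemble together into C1q, and sit in 1 cluster on chromosome 4 (GRCm38), with gaps of 3600 bases between C1qb and C1qc and 2979 bases between C1qc and C1qa. C1qa had 43.9, 50.2 and 49.3 CPM in the libraries labelled r1r2V, against 46.6, 41.3 and 42.8 CPM in those labelled V. C1qb had 38.4, 46.2 and 43.4 CPM in r1r2V, against 41.0, 37.97 and 39.7 CPM in V. C1qc had 34.6, 39.0 and 39.7 CPM in r1r2V, against 32.7, 32.7 and 35.2 CPM in V. All 3 chains were highest in replicates 4 and 5 of r1r2V, and all 3 overlapped between groups because r1r2V replicate 1 lay among the V libraries. The fold change was 1.10 for C1qa (95% interval 0.970 to 1.24, adjusted p = 0.702), 1.08 for C1qb (0.950 to 1.22, adjusted p = 0.752) and 1.13 for C1qc (0.999 to 1.27, adjusted p = 0.655) by edgeR.

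The chains kept nearly fixed proportions. Per length, C1qa was 1.10 ± 0.0305 times C1qb in r1r2V and 1.08 ± 0.0319 times in V, as a ratio of FPKM (SD, n = 3 each). C1qc was 0.886 ± 0.0375 times C1qb in r1r2V and 0.848 ± 0.0459 times in V. In each case the groups differed by no more than about 1 SD.

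C3 and C4b, the proteins cleaved downstream of C1q, had another order over the libraries. C4b had 42.7, 36.9 and 31.9 CPM in the libraries labelled r1r2V, against 33.9, 31.6 and 39.6 CPM in those labelled V. C3, the central component on which all the pathways converge, had 9.17, 7.64 and 5.19 CPM in r1r2V, against 5.64, 4.79 and 6.41 CPM in V. Both were highest in r1r2V replicate 1 and lowest, within r1r2V, in replicate 5, which is not the order of the C1q chains, and both overlapped with V. The fold change was 1.06 for C4b (0.887 to 1.27, adjusted p = 0.863) and 1.31 for C3 (0.944 to 1.81, adjusted p = 0.683) by edgeR. C4b was 4.93 ± 0.778 times C3 in FPKM in r1r2V and 5.91 ± 0.283 times in V (SD, n = 3 each). C4b shares 96.0% of its sequence with C4a, and the authors' counting may have split reads between them. C4a held 41.4 counts in r1r2V and 29.9 in V, and with both genes summed the log2 fold change stayed at 0.09 (edgeR, adjusted p = 0.853).

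**Figure D3:**
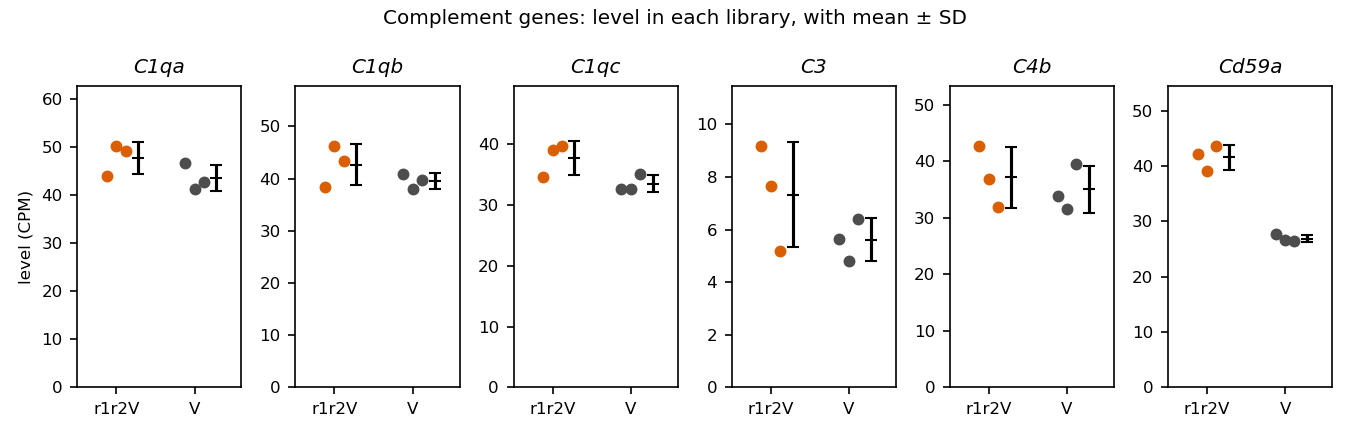
Level (CPM, from 0) of C1qa, C1qb, C1qc, C3, C4b and Cd59a in each library, with points for libraries and bars for mean ± SD of 3, r1r2V left of V. C1qa, C1qb and C1qc overlap between the groups, with r1r2V replicate 1 lowest in r1r2V, while C3 and C4b have that same library highest, and Cd59a does not overlap.

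The receptors for complement fragments ranged from a few counts per library for C5ar1 to about the CPM level of Tyrobp for Itgam. C3ar1, the receptor for C3a, had 1.62, 2.53 and 1.28 CPM in r1r2V, against 1.41, 1.63 and 1.84 CPM in V (log2 fold change 0.16, adjusted p = 0.900 by edgeR). Itgam, the alpha chain of complement receptor 3, had 12.7, 12.5 and 13.5 CPM in r1r2V, against 13.2, 13.7 and 11.99 CPM in V. Itgb2, its beta chain, had 3.54, 4.88 and 4.08 CPM in r1r2V, against 3.22, 3.66 and 4.69 CPM in V. All 3 receptors overlapped between the groups, and Itgam was the steadiest, with a fold change of 0.996 (0.852 to 1.16, adjusted p = 0.990 by edgeR). Itgam overlaps another gene, Gm49368, over 3450 exonic bases on the same strand, and reads there cannot be told apart. C5ar1, the receptor for C5a, was at 10, 8 and 10 counts in r1r2V and at 0, 2 and 8 counts in V, too few to be tested. A fit without the filter gave it an adjusted p of 0.739 by edgeR, and the sum of its counts was 28 in r1r2V and 10 in V.

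Among the homeostatic microglial receptors, Siglech, a sialic acid-binding lectin, was the member with the lowest unadjusted p. It had 11.4, 14.7 and 10.7 CPM in the libraries labelled r1r2V, against 10.2, 9.52 and 9.39 CPM in those labelled V. Every r1r2V library was above every V library, with replicate 4 of r1r2V standing above the other two. The fold change was 1.27 (1.02 to 1.56, unadjusted p = 0.0327, adjusted p = 0.604 by edgeR). Tmem119, a transmembrane protein marking microglia, had 16.3, 16.7 and 18.7 CPM in r1r2V, against 15.5, 14.3 and 15.5 CPM in V, again without overlap (fold 1.14, adjusted p = 0.676 by edgeR). Together with Fcgr3 below, these made 3 members of 34 (8.82%) whose r1r2V libraries all lay above those of V, against 6.87% of all genes. No member lay below V in all r1r2V libraries, against 7.63% of all genes.

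The fractalkine receptor Cx3cr1 had 29.5, 31.8 and 33.7 CPM in r1r2V, against 29.7, 30.8 and 29.8 CPM in V. Its fold change was 1.05, with an interval of 0.937 to 1.18 and an adjusted p of 0.811 by edgeR. P2ry12, the ADP receptor by which microglial processes reach injured sites, had 22.8, 25.3 and 26.6 CPM in r1r2V, against 25.0, 24.1 and 21.4 CPM in V. For both, the groups overlapped. P2ry13, another ADP receptor 5388 bases from P2ry12 on chromosome 3, had 8.70, 9.88 and 8.45 CPM in r1r2V, against 9.76, 7.55 and 8.50 CPM in V. The log2 fold change was 0.08 for P2ry12 (adjusted p = 0.827) and 0.07 for P2ry13 (adjusted p = 0.912) by edgeR. Csf1r, the growth factor receptor that microglia need to survive, had 50.9, 48.4 and 60.9 CPM in r1r2V, against 52.6, 49.1 and 56.5 CPM in V. Its range in r1r2V enclosed that in V, with a fold of 1.01 (0.873 to 1.17, adjusted p = 0.969 by edgeR). Csf1r overlaps Hmgxb3 on the other strand over 873 exonic bases, and P2ry12 overlaps Med12l over 9. Without strand information, reads from such stretches cannot be told apart.

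Most of the remaining homeostatic members were more variable within r1r2V. Fcrls, an Fc receptor-like protein, had 12.2, 22.7 and 16.7 CPM in r1r2V, against 16.5, 16.9 and 16.4 CPM in V. Replicates 1 and 4 of r1r2V lay on either side of the V libraries, whose SD was 0.273 CPM, and the log2 fold change was 0.05 (adjusted p = 0.953 by edgeR). Olfml3, a secreted olfactomedin-like protein, had 13.4, 20.9 and 16.7 CPM in r1r2V, against 12.7, 13.3 and 15.2 CPM in V (fold 1.24, adjusted p = 0.665). Gpr34, a receptor for lysophosphatidylserine, had 9.34, 12.2 and 11.1 CPM in r1r2V and 8.86, 11.7 and 8.63 CPM in V (log2 fold change 0.16, adjusted p = 0.804). Both overlapped, with r1r2V replicate 4 the highest library. Selplg, a glycoprotein that selectins bind, had its highest level in r1r2V replicate 5 and its lowest in r1r2V replicate 4, at 24.9, 19.4 and 29.8 CPM in r1r2V and 21.3, 19.7 and 24.7 CPM in V (log2 fold change 0.17, adjusted p = 0.782). Aif1, which encodes the marker IBA1, had 4.41, 5.74 and 4.66 CPM in r1r2V and 5.53, 4.17 and 4.76 CPM in V, with the groups overlapping (log2 fold change 0.04, adjusted p = 0.967, all by edgeR).

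Of the genes for immune adaptors and phagocytosis, Trem2, a lipid-sensing receptor of microglia, had 8.82, 8.33 and 6.88 CPM in r1r2V, against 5.98, 6.70 and 7.23 CPM in V. Only r1r2V replicate 5 lay within the V range, and the fold change of 1.21 (0.962 to 1.52) had an adjusted p of 0.683 by edgeR. Tyrobp, the signalling adaptor through which Trem2 acts, had 11.9, 14.9 and 13.5 CPM in r1r2V, against 14.6, 11.7 and 13.6 CPM in V, with a fold of 1.01 (0.832 to 1.22, adjusted p = 0.987). Per length, Tyrobp was 3.49 ± 0.670 times Trem2 in r1r2V and 4.15 ± 0.774 times in V, as a ratio of FPKM (SD, n = 3 each). Fcgr3, a low-affinity receptor for IgG, had 14.4, 15.74 and 14.0 CPM in r1r2V, against 13.1, 12.2 and 12.9 CPM in V. Its groups did not overlap (fold 1.15, 0.991 to 1.34, adjusted p = 0.660 by edgeR). The subunit Fcer1g, with which Fcgr3 pairs, overlapped, at 7.14, 8.56 and 10.7 CPM in r1r2V and 7.39, 7.32 and 9.71 CPM in V (log2 fold change 0.12, adjusted p = 0.881 by edgeR).

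The lysosomal protease Ctss, the most abundant member per length, had 67.0, 82.4 and 75.4 CPM in r1r2V, against 77.3, 68.2 and 73.1 CPM in V (fold 1.03, 0.900 to 1.18, adjusted p = 0.917 by edgeR). Laptm5, a lysosomal membrane protein, had 29.8, 28.6 and 35.9 CPM in r1r2V and 33.1, 28.5 and 33.9 CPM in V. Cd68, another lysosomal protein used as a marker of phagocytic activity, had 4.47, 5.29 and 6.30 CPM in r1r2V and 5.19, 5.35 and 5.20 CPM in V. None of these 3 separated the groups, with a log2 fold change of -0.02 for Laptm5 (adjusted p = 0.970) and 0.03 for Cd68 (adjusted p = 0.973) by edgeR. Ptprc, the leukocyte surface phosphatase CD45, had 3.83, 5.23 and 4.08 CPM in r1r2V and 3.16, 4.23 and 4.44 CPM in V (log2 fold change 0.15, adjusted p = 0.852 by edgeR). Cd53, a tetraspanin of leukocytes, had 7.25, 10.5 and 8.39 CPM in r1r2V, against 6.21, 8.11 and 6.15 CPM in V. Ly86, the MD-1 protein that modulates Toll-like receptor signalling, had 10.3, 15.9 and 13.6 CPM in r1r2V, against 10.6, 10.9 and 10.02 CPM in V. For Cd53 and Ly86, replicate 4 of r1r2V was the highest library and replicate 1 lay within the V range. The adjusted p by edgeR was 0.670 for Cd53 (fold 1.27) and 0.655 for Ly86 (fold 1.26).

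The innate sensors and reactive markers were mostly low and variable. Tlr2, a receptor for bacterial lipoproteins, had 2.38, 3.10 and 4.66 CPM in r1r2V, against 1.97, 3.04 and 2.66 CPM in V (fold 1.32, 0.865 to 2.01, adjusted p = 0.733). Tlr4, the receptor for lipopolysaccharide, had 2.21, 3.45 and 3.26 CPM in r1r2V and 2.65, 2.197 and 2.60 CPM in V (adjusted p = 0.782), and Cd14, its co-receptor, had 2.26, 1.84 and 2.62 CPM in r1r2V and 2.31, 2.197 and 2.28 CPM in V (adjusted p = 0.988; all by edgeR). All 3 overlapped. Lyz2, the lysozyme of myeloid cells, had 3.89, 12.2 and 6.30 CPM in r1r2V, against 5.87, 6.31 and 4.82 CPM in V. Its log2 fold change was 0.40 (-0.36 to 1.15, adjusted p = 0.783 by edgeR), and -0.16 without replicate 4 of r1r2V. Lyz2 shares 95.8% of its sequence with Lyz1, and with both summed the log2 fold change was 0.50 (edgeR, adjusted p = 0.733).

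Cd74, the invariant chain of MHC class II, had the widest interval of the members tested on the log2 scale, from -0.77 to 0.78. It had 3.54, 11.0 and 9.44 CPM in r1r2V, against 10.04, 8.17 and 5.58 CPM in V, a fold of 1.00 with an interval of 0.586 to 1.72 (edgeR, adjusted p = 0.998). Replicate 1 of r1r2V was the lowest of all libraries and replicate 4 the highest. The class II genes H2-Aa, H2-Ab1 and H2-Eb1, the last pair named after their values were seen, shared the extremes of r1r2V, with their lowest level in replicate 1 (1.97, 1.91 and 1.51 CPM) and their highest in replicate 4 (6.61, 5.46 and 4.94 CPM). H2-Aa had 4.29, 3.38 and 2.28 CPM in V.

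The cytokine members sat at the limit of detection. A count of 3 corresponds to 0.169 to 0.19 CPM per library, the upper limit that a count of 0 allows, and this covers counting error only. Il6 had 1, 1 and 1 counts in r1r2V and 2, 0 and 2 counts in V. Il1b had 2, 2 and 0 counts in r1r2V and 0, 3 and 3 counts in V. The chemokine Ccl2, which draws monocytes, had 3, 11 and 4 counts in r1r2V and 4, 0 and 2 counts in V, and 11 of its 18 counts in r1r2V came from replicate 4. A difference in these genes was not detectable at this depth.

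**Figure D4:**
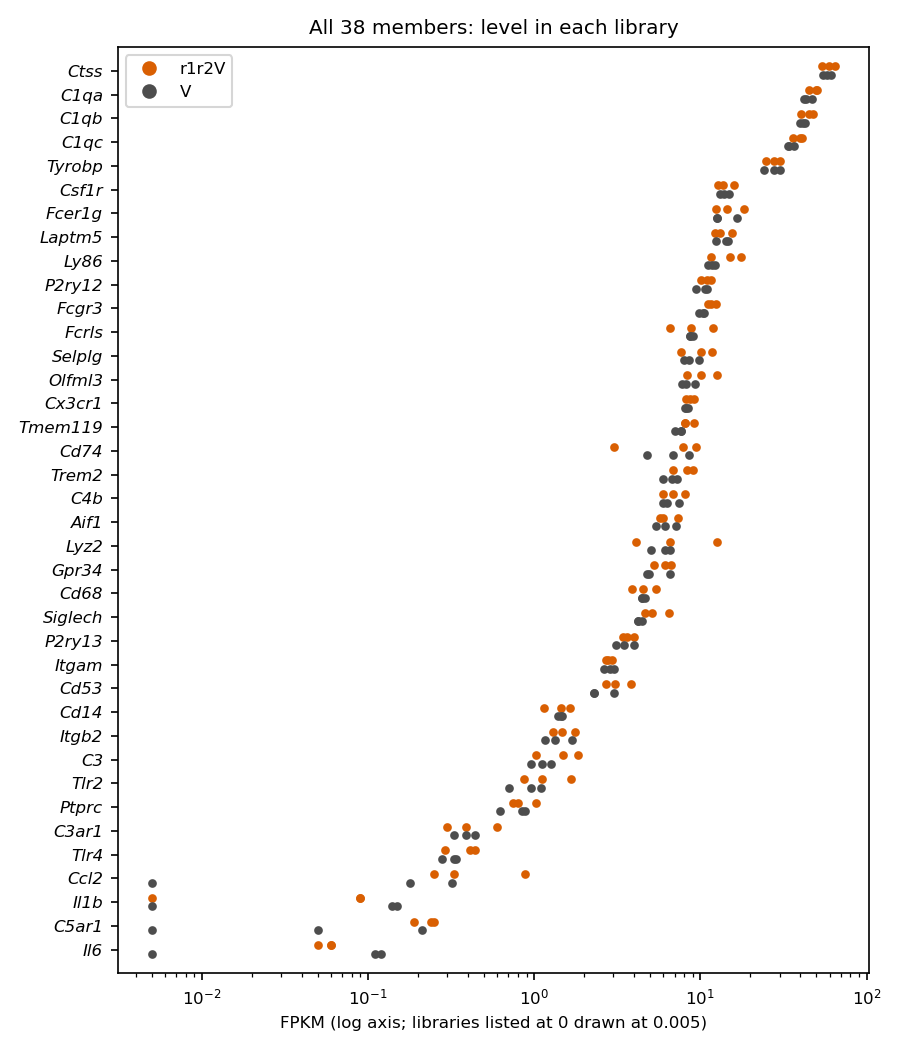
Level (FPKM, log axis) of all 38 members in each library, ordered by mean level, with r1r2V drawn above V and libraries listed at 0 drawn at the left edge. Ctss and the C1q chains lie at the top, while Il6, Il1b, Ccl2 and C5ar1 lie at the bottom among a few counts per library.

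Per length, the members spanned a wide range. Ctss led with 59.4 ± 5.52 FPKM in r1r2V and 58.0 ± 3.38 FPKM in V, ahead of C1qa with 48.5 ± 2.93 FPKM in r1r2V and 44.3 ± 2.64 FPKM in V (SD, n = 3 each). C1qb and C1qc followed, and Tyrobp was next with 27.6 ± 2.78 FPKM in r1r2V and 27.4 ± 2.95 FPKM in V. C1qb had 44.2 ± 3.62 FPKM in r1r2V and 41.1 ± 1.40 FPKM in V, and lay below C1qa in each of the 6 libraries. Il6 was lowest, with 0.0567 ± 0.00577 FPKM in r1r2V and 0.0767 ± 0.0666 FPKM in V.

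Among 27 other complement genes listed, of which 18 were tested, 1 was higher and 0 were lower. That gene, Cd59a, encodes a membrane-anchored inhibitor of the terminal attack complex. It had 42.1, 39.0 and 43.5 CPM in the libraries labelled r1r2V, against 27.6, 26.5 and 26.5 CPM in those labelled V. Every r1r2V library lay above every V library. The fold change was 1.54 (1.38 to 1.73, log2 fold change 0.63, adjusted p = 0.00374 by edgeR), and the adjusted p lay between 1.19e-06 and 0.048 under the alternatives. It passed with each library left out in turn. With Cd59b, a neighbouring copy 91.4% identical over 255 bases, summed in, the log2 fold change was 0.62 (edgeR, adjusted p = 0.00376). Cd59a lies at chr2:104095753-104115410 (GRCm38), and the flanking genes tested, Lmo2 (log2 fold change 0.11), Fbxo3 (0.11), Cd59b (0.43), D430041D05Rik (-0.13), Hipk3 (0.04) and Cstf3 (0.09), did not pass the test by edgeR.

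Over all genes tested, 60 of 14438 (0.416%) were called. These included 28 of 515 tested on chromosome 14, 7 of 1143 on chromosome 2 and 6 of 1150 on chromosome 11. Of the 7 on chromosome 2, 6 lay between 104.1 and 126.0 Mb, Cd59a among them. The others were Scg5, Bub1b, Pla2g4e, Adal and Fam227b, named after their values were seen. What the position has to do with the difference was not tested. The other complement genes of highest FPKM did not pass the test. Clu, a chaperone that restrains the attack complex, had 449 ± 47.0 FPKM in r1r2V and 489 ± 22.1 FPKM in V (adjusted p = 0.727). Vtn had 34.0 ± 6.53 FPKM in r1r2V and 29.4 ± 2.09 FPKM in V (adjusted p = 0.706), and Cr1l, a membrane regulator, 11.99 ± 1.45 FPKM in r1r2V and 11.4 ± 0.486 FPKM in V (adjusted p = 0.871; SD, n = 3 each, edgeR). The median over the 18 was 0.17 on the log2 scale.

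Other lists of microglial genes held no called gene. Among 25 further homeostatic genes, 0 passed and 20 estimates were above 0, with a median log2 fold change of 0.17. In 6 of the 25 every r1r2V library lay above every V library, and in 1 below, against 6.87% and 7.63% of all genes. At an unadjusted p under 0.05 by edgeR, 4 were higher and 1 lower, against 3.95% and 3.63% of all genes. The 4 were Irf8, Mertk, P2ry6 and Plcg2, of which all but Mertk are named after their values were seen. Irf8, a transcription factor of the myeloid lineage, had 5.86, 4.08 and 4.84 CPM in r1r2V, against 3.67, 2.54 and 3.55 CPM in V, without overlap (fold 1.52, 1.10 to 2.09, adjusted p = 0.536 by edgeR). The 1 lower gene was Lgmn, a lysosomal protease, which had 80.7 ± 3.55 FPKM in r1r2V and 90.4 ± 1.40 FPKM in V (SD, n = 3 each, adjusted p = 0.600 by edgeR). Of 19 genes that mark disease-associated microglia, 15 were tested, 0 passed and the median was -0.06. Of 32 innate sensing and signalling genes, 26 were tested and 0 passed, with a median of 0.18. Summed, the 32 came to 356, 362 and 359 CPM in r1r2V and 335, 329 and 343 CPM in V, without overlap. In 9 of the 26 every r1r2V library lay above every V library, and in 1 below, against 6.87% and 7.63% of all genes. By edgeR, 5 were higher and 1 lower at an unadjusted p under 0.05, against 3.95% and 3.63% of all genes. Il18, an inflammasome cytokine, came nearest there, with 20.3, 21.7 and 21.8 CPM in r1r2V, against 16.8, 15.66 and 16.9 CPM in V, no overlap, and an adjusted p of 0.168 by edgeR. Of 9 immune genes reported elsewhere as repressed by REV-ERB, 7 of them members here, 6 were tested and 0 passed, with a median of 0.17. DESeq2 and limma-voom also called 0 genes in these lists.

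Of the signals that neurons and other cells send to microglia, 0 of 9 ligand genes passed, and their median was 0.01 on the log2 scale. Cx3cl1, the fractalkine bound by Cx3cr1, had 81.0 ± 9.96 FPKM in r1r2V and 83.3 ± 3.90 FPKM in V (fold 0.977, 0.853 to 1.12, adjusted p = 0.934). Cd200, a neuronal brake on microglia, had 121 ± 10.6 FPKM in r1r2V and 121 ± 6.87 FPKM in V (fold 1.01, 0.891 to 1.14, adjusted p = 0.978). Il34, a ligand of Csf1r, had 18.9 ± 2.19 FPKM in r1r2V and 17.803 ± 0.985 FPKM in V (fold 1.07, 0.921 to 1.24, adjusted p = 0.811; all SD, n = 3 each, by edgeR). Of 6 counter-receptors 5 were tested and 0 passed, with 1 estimate above 0 and a median of -0.08. In 2 of the 5 every r1r2V library lay below every V library, and in 0 above, against 7.63% and 6.87% of all genes. Of 8 antigen presentation genes 7 were tested and 0 passed, with 3 estimates above 0 and a median of -0.10.

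Markers of other macrophages and of blood were read beside the members. The 9 markers of border-associated macrophages, which live in the meninges and around vessels, summed to 14.0, 19.2 and 18.7 CPM in the libraries labelled r1r2V, against 11.0, 12.3 and 11.9 CPM in those labelled V, without overlap. None of the 9 was at 0 in any library. Of the 5 tested, 0 passed and all 5 estimates were above 0, with a median of 0.68. Mrc1, the mannose receptor, had 1.80, 4.25 and 3.67 CPM in r1r2V, against 1.64, 1.86 and 0.952 CPM in V (adjusted p = 0.467 by edgeR). Like the members, these markers were highest in replicates 4 and 5 of r1r2V, and their part in the members' estimates was not tested. The 14 markers of neutrophils, monocytes and lymphocytes summed to 2.10 to 3.16 CPM in r1r2V and 2.37 to 3.49 CPM in V, with 8 of the 14 at 0 in some library, Ngp, Camp, Retnlg and Cd3e among them. The 5 red cell markers summed to 164 to 243 CPM in r1r2V and 141 to 240 CPM in V.

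Markers of the remaining cell types overlapped between groups. Meningeal fibroblast markers summed to 81.8, 90.5 and 203 CPM in r1r2V and 97.8, 120 and 85.8 CPM in V. Thus 1 library, r1r2V replicate 5, held more of them. All 7 of these markers were tested and had estimates above 0, with a median log2 fold change of 0.42. Estimates mostly above 0 were therefore not particular to the members and the macrophage markers. Astrocyte markers summed to 2683 to 3177 CPM in r1r2V and 2831 to 2972 CPM in V, endothelial markers to 263 to 325 CPM in r1r2V and 288 to 304 CPM in V, and pan-neuronal markers to 5097 to 5775 CPM in r1r2V and 5346 to 5386 CPM in V. Oligodendrocyte markers summed to 5141 to 6597 CPM in r1r2V and 5260 to 7335 CPM in V, and choroid plexus markers to 29.6 to 48.5 CPM in r1r2V and 29.2 to 38.4 CPM in V. No gene of these lists passed the test, and of 8 reactive astrocyte genes 6 were tested and 0 passed.

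**Figure D5:**
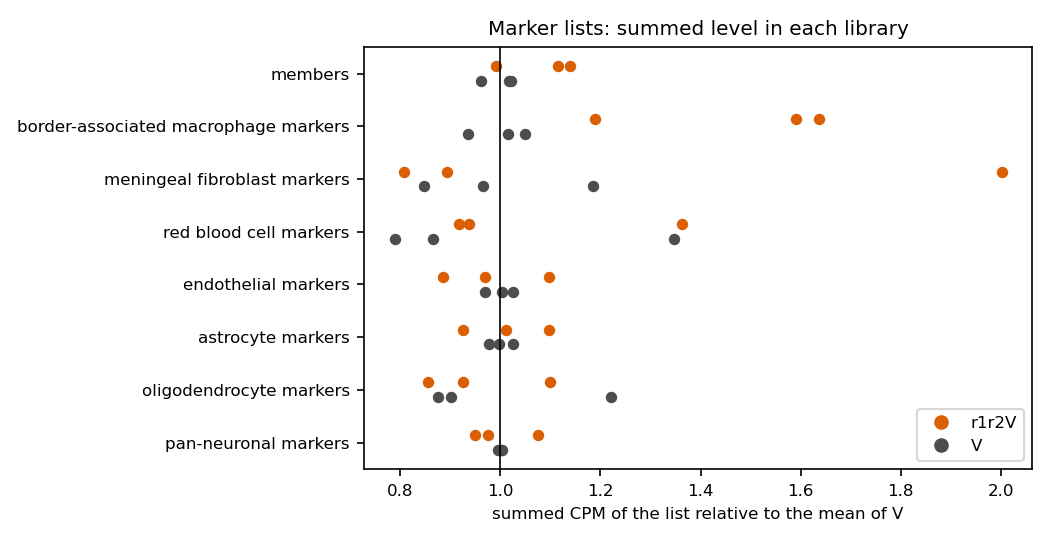
Summed CPM of each marker list in each library, relative to the mean of V, with r1r2V above V in each list. The border-associated macrophage markers lie above V in all 3 r1r2V libraries (14.0 to 19.2 CPM in r1r2V, 11.0 to 12.3 CPM in V), while the members and the other lists drawn overlap.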

How the data were processed

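RNA-seq of 6 SCN libraries, 3 labelled r1r2V and 3 labelled V, was analysed. For each gene the authors deposited an expected count (an estimated read number) and an FPKM, per the file headers. Of the expected counts, 9.88% were not whole, and they were rounded. The submitters' processing notes name RSEM 1.2.12, Bowtie2 2.2.5, DESeq2, GATK, HISAT2 2.0.4, Cufflinks 2.2.1, StringTie 1.0.4 and build mm10. The sources used here state neither their roles nor the strand setting.

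A gene not listed in a library was taken as 0. CPM is the rounded count per 1000000 of the TMM-scaled library total. Genes were kept by filterByExpr (minimum count 10), scaled by TMM and tested with the quasi-likelihood test of edgeR 4.0.16 in R 4.3.3, r1r2V over V, with Benjamini-Hochberg adjustment over 14438 genes at 0.05. Scripts were tested on simulated counts. The alternatives were DESeq2 1.42.0, limma 3.58.1 (voom, and log2(FPKM + 1) or log2(FPKM + 0.1) of the authors' FPKM), other scalings and filters, summed copies and leaving out each library.

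Members and lists were chosen with earlier results of these data known. All 38 members are named. Of other lists, genes that passed and some of highest FPKM are named. C1s1, Irf8, P2ry6, Plcg2, H2-Ab1, H2-Eb1 and the chromosome 2 genes were singled out after their values were seen, as was the Cd59a promoter.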

Additional observations from a re-analysis of the deposited data

How the results depend on the processing

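No paired analysis was run, because the labels give no pairing of libraries. The replicate number 4 occurs in both r1r2V and V, but nothing states that a shared number marks a pair. Under all 16 alternatives 0 members were called, and the median log2 fold change of the members stayed between 0.07 and 0.21. Over all genes, edgeR called 43 higher and 17 lower, DESeq2 called 69 higher and 40 lower, and leaving out 1 library gave 19 to 52 higher and 7 to 24 lower, V libraries giving the lowest counts (19 to 20 higher, 7 to 8 lower). Leaving out an r1r2V library, which keeps the same number of libraries, gave 33, 39 and 52 higher. Why leaving out a V library gave fewer was not tested. Of the 34 members tested, 18 kept their direction in every alternative and 16 did not. Cd74 was below 0 with upper-quartile scaling (-9e-04), limma-voom (-0.12), log2(FPKM + 1) (-0.0752) and log2(FPKM + 0.1) (-0.10). With 1 library left out, the log2 fold change ran from -0.0238 to 0.18 for C4b, -0.16 to 0.35 for C3ar1, -0.0616 to 0.0350 for Itgam, -0.0127 to 0.27 for Itgb2, -0.0206 to 0.17 for P2ry13, -0.0895 to 0.0841 for Csf1r, -0.20 to 0.25 for Fcrls, -0.0874 to 0.15 for Aif1, -0.0756 to 0.0896 for Tyrobp, -0.0518 to 0.26 for Fcer1g, -0.11 to 0.14 for Cd68, -0.0331 to 0.12 for Ctss, -0.13 to 0.0454 for Laptm5, -0.15 to 0.11 for Cd14, -0.30 to 0.36 for Cd74 and -0.16 to 0.71 for Lyz2. Summing Cd59a with Cd59b was added after the data were seen. Depth limits Il6, Il1b, Ccl2 and C5ar1, which held at most 11 counts per library, and 3 libraries per group limit the rest.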
